A study of Homo sapiens with 4 samples.

Results

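Nuclear genes for the mitochondrial respiratory chain and the ATP synthase were examined as RNA partners of DHX36, a DEAH-box helicase known to unwind G-quadruplexes, in PAR-CLIP data from HEK293 cells. They were taken as every row of the deposited table whose gene symbol starts with NDUFA, NDUFB, NDUFC, NDUFS or NDUFV and a number, with UQCR, with COX and a number from 4 to 8, or with ATP5, or is SDHA, SDHB, SDHC or SDHD. This name pattern found 93 of the 26490 rows. Of these, 80 were subunits of complexes I to V by textbook assignment, and 13 were other genes with such names, among them pseudogenes, antisense RNAs, readthrough genes and the assembly factor ATP5SL.

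The respiratory chain sits in the inner mitochondrial membrane. Complexes I and II take electrons from NADH and succinate, complex III passes them to cytochrome c, and complex IV hands them to oxygen, while complexes I, III and IV pump protons whose return through complex V, the ATP synthase, drives the synthesis of ATP. Most subunits are encoded in the nucleus, translated in the cytoplasm and imported, and their mRNAs are typically short and abundant.

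Both HEK293 lines, derived from human embryonic kidney, stably carried a tetracycline-inducible, tagged DHX36 transgene and were given 500 ng/ml tetracycline for 15 h and UV light of 365 nm for 5 min. One expressed FH-DHX36, labelled as isoform 2, and the other FH-DHX36-E335A, a helicase-dead mutant labelled as isoform 1 and also called the mutant here, so that the effects of isoform and mutation cannot be told apart. Crosslinked RNA was recovered with an antibody to the FLAG tag, and the tagged protein was overexpressed, with no untagged control analysed here. There were 2 biological replicates per line, but the table gives 1 value per gene and line. Replicate error could not be computed, and no difference between the lines was tested. Intervals on reads and clusters cover counting error only, and reads copied by PCR are not independent molecules. Those on shares of genes bound treat the genes as independent draws, although genes are not replicates.

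A cluster is a stretch of overlapping reads with the T-to-C conversions that mark crosslinked 4-thiouridine, and crosslinked reads are the reads in clusters. A gene with at least 1 cluster is called bound. The FH-DHX36 values summed to 2160413 crosslinked reads and those of FH-DHX36-E335A to 8752127. A gene without a called cluster is listed at 0, which does not show that it gave no reads.

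FH-DHX36 bound 44 of the 93 genes (47.3%, Wilson 95% interval 37.5 to 57.4), where 22.4% of all rows were bound. FH-DHX36-E335A bound 71 (76.3%, interval 66.8 to 83.8), against 34.5% of all rows. The background rows include genes that may not be expressed in HEK293. RNA abundance was recovered here from NXPM, which is possible only for bound genes, and the study's RNA-seq was not used. Bound shares were therefore not compared at equal abundance. With only exonic clusters counted, those of both UTRs and the CDS, the numbers were 34 (19% of all rows) and 62 (32.2%). Every one of the 44 genes bound by FH-DHX36 was also bound by FH-DHX36-E335A, and 27 were bound by FH-DHX36-E335A alone, while 22 carried no cluster. In the table, 21.4% of all rows were bound in both PAR-CLIPs, 261 were bound by FH-DHX36 alone and 3462 (13.1%) by FH-DHX36-E335A alone. The 27 genes were 38.0% of those bound by FH-DHX36-E335A, and the 3462 rows were 37.9%.

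The bound genes carried 77 clusters with 12570 crosslinked reads for FH-DHX36, and 301 clusters with 73999 reads for the mutant. Read counts ranged from 19 to 4581 with a median of 82 in the former PAR-CLIP, and from 9 to 22043 with a median of 353 in the latter. The medians over all bound genes of the table were 121 and 326. FH-DHX36 left exactly 1 cluster on 25 of its 44 genes, whereas FH-DHX36-E335A left 1 cluster on 8 of its 71. In the table these were 2570 of 5930 and 1558 of 9131 bound genes, so the number with 1 cluster was also smaller there for the mutant. The reads were concentrated on few mRNAs. The 5 genes with most reads held 67.2% of the FH-DHX36 reads of all 93 and 52.8% of the mutant's.

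**Figure D1:**
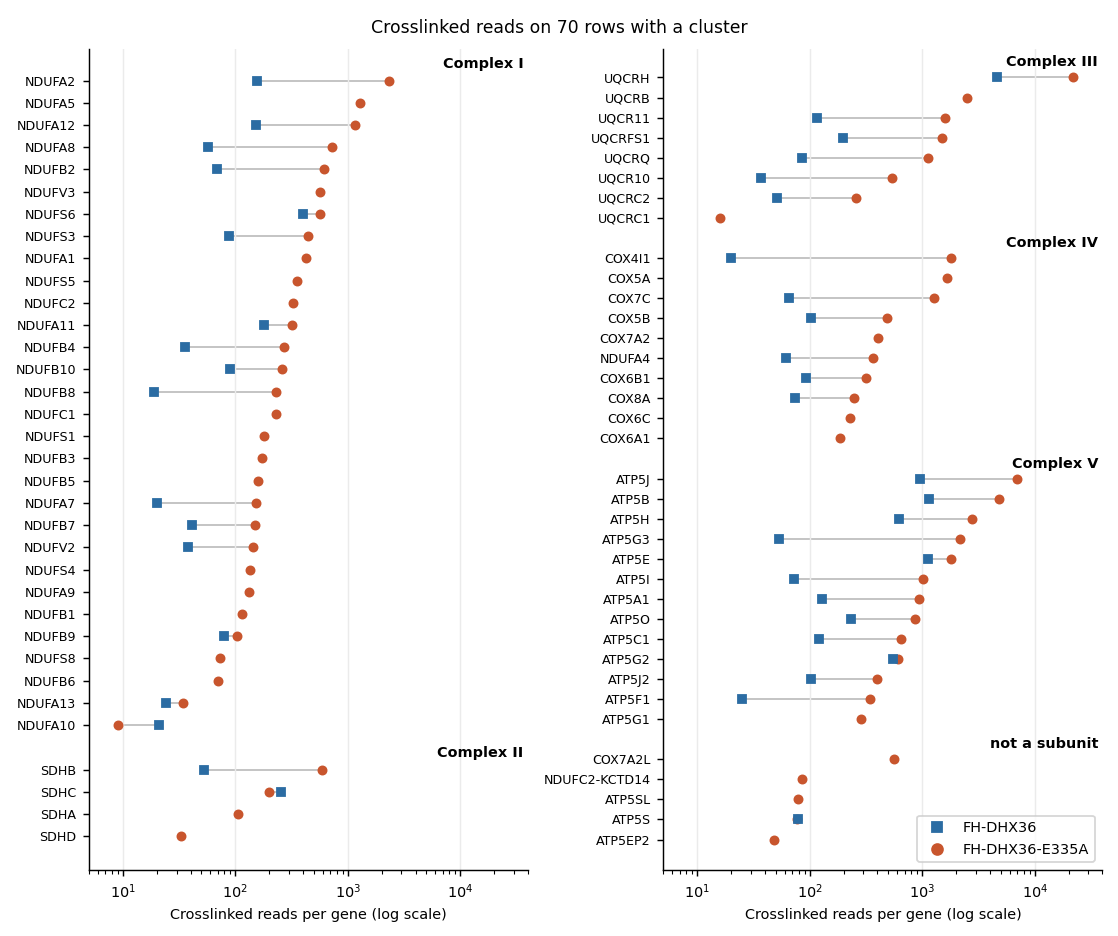
Crosslinked reads (log axis) of 70 of the 71 bound genes, grouped by complex, with squares for FH-DHX36 and circles for FH-DHX36-E335A. A line joins the values of a gene bound in both, and a circle without a square is a gene with no FH-DHX36 cluster. UQCRH stands at the far right with 4581 and 22043 reads.

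The transcripts are short. For genes bound by the mutant, the canonical transcript had a median length of 756 nt and the 3′ UTR one of 193 nt, compared with 3573 and 1534 nt over all genes bound there. Per 1 kb of transcript, the bound genes carried a median of 4.18 FH-DHX36-E335A clusters against 1.39 over all bound genes. For FH-DHX36 it was 1.56 against 0.55. Other bound genes whose abundance reached 100, a limit chosen after seeing the data, had higher medians, 4.84 for FH-DHX36-E335A and 2.32 for FH-DHX36. Bound cytosolic ribosomal protein genes were also higher, at 4.33 and 2.38, and mitochondrial ones were lower, at 3.46 and 1.49. These differences were not tested. DHX36 is known for binding G-quadruplexes, so the mature transcripts were searched on the sense strand for at least 4 runs of at least 2 G separated by 1 to 7 nt, counting matches that do not overlap. Of the 87 genes with a canonical coding transcript, 87.4% held a match anywhere in it, compared with 94.3% of 19553 canonical coding transcripts. In the 3′ UTR, a match was present in 35.6% of the genes and in 63.2% of all transcripts. Per kb of 3′ UTR, the genes bound by FH-DHX36-E335A held 1.43 matches and all genes bound by it 1.73, a smaller gap than that of the shares. The same pattern with 4 runs of at least 3 G was found in 6 of the 87, which were NDUFA2, NDUFA3, NDUFA9, SDHC, UQCR11 and UQCRB (6.90%, against 23.2% of all). The table does not place clusters at single bases, so that no cluster can be assigned to a match.

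Complex III held 40.3% of the FH-DHX36 reads of the 93 genes and 40.0% of the mutant's, and most of them lay on the mRNA of 1 subunit. UQCRH, the acidic hinge protein beside cytochrome c1 (chr1:46769370-46782448, plus strand, GRCh37), had 4581 FH-DHX36 reads, all in 1 cluster of the 3′ UTR. For the mutant it had 22043 reads in 4 clusters, of which 21717 fell in 2 clusters of the 3′ UTR, 243 in an intron and 83 in the 5′ UTR. It thus held 36.4% and 29.8% of the reads of the 93 genes. Over the whole table it ranked 46 by FH-DHX36 reads and 13 by FH-DHX36-E335A reads, and by 3′ UTR reads it ranked 9 and 5. The 3′ UTR that took these reads is only 192 nt long.

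UQCRH is also among the abundant mRNAs of the table. Its recovered RNA abundance was 1327 (on the FPKM scale), higher than that of 98.8% of bound genes. NXPM, the authors' share of crosslinked reads relative to RNA abundance, was 1.60 for FH-DHX36 and 1.90 for the mutant. Both lay below the medians of 7.84 and 5.66 over all bound genes. Among bound genes with an abundance of 1000 or more, the medians were only 0.0225 and 0.0245 and the upper quartiles 0.061 and 0.074. The UQCRH values lay above these, but the genes of this group had a higher median abundance, 3720 and 3182.5. A near-identical copy, UQCRHL, matched 96.1% of the UQCRH transcript at 97.9% identity and was listed without a cluster, so how reads were divided between the copies is uncertain. Copies at 95% identity or more over at least 50% of the transcript were also found for ATP5H, ATP5J2, ATP5O, COX6A1, NDUFA7, NDUFA11, NDUFA13, NDUFB1, NDUFB3, NDUFB4, NDUFB8, NDUFV2 and SDHA. For ATP5O, NDUFA7, NDUFA11, NDUFA13 and NDUFB8 the copy is annotated as protein-coding, and NDUFV2 has a non-coding RNA copy at 100% identity. Whether these copies overlap the same locus was not checked, so their bearing on the counts is unknown. The counts of the other listed genes are uncertain in the same way as those of UQCRH. The 2 matches to the G-run pattern in the UQCRH transcript are shown because this gene led both PAR-CLIPs, with the G runs in capitals, from GENCODE release 44 transcripts. The first spans the junction of exons 1 and 2 in the CDS, chr1:46769489-46774782 with the intron included, and the second lies in exon 4, 117 nt after the stop codon, at chr1:46782374-46782391.
UQCRH CDS: GGaGGaGGaagaGG
UQCRH 3′ UTR: GGGuuuGGcuuaGGcuGG

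The other complex III mRNAs had far fewer reads. UQCRB, a small subunit near the ubiquinone site, had no FH-DHX36 cluster and 2496 FH-DHX36-E335A reads in 9 clusters, of which 2062 reads fell in the CDS, the highest CDS count of the 93 genes in that PAR-CLIP. With an abundance of 35.9 its NXPM was 7.95, above the table median. The pseudogene UQCRBP1 was listed without a cluster, and how reads were divided between it and UQCRB is uncertain. UQCR11, a small membrane subunit, had 117 and 1585 reads, and UQCRFS1, the Rieske iron-sulfur protein, 196 and 1511, of which 353 of the latter were intronic, the most of the 93 genes. UQCRQ, another small subunit, had 85 and 1125 reads and the highest 5′ UTR count of the FH-DHX36-E335A PAR-CLIP among the 93, 265 reads. These 3 genes are bound in both PAR-CLIPs, with read counts higher in the deeper one. The core protein UQCRC1 had no FH-DHX36 cluster and 16 FH-DHX36-E335A reads, the lowest count after that of NDUFA10.

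In complex V, 12 of 15 subunits were bound by FH-DHX36 and 13 by FH-DHX36-E335A, with 5160 and 23574 reads in all. ATP5B, the catalytic beta subunit, had 1160 FH-DHX36 reads in 7 clusters, 678 of them in the CDS, and 4825 FH-DHX36-E335A reads in 14 clusters, 1844 of them in the CDS. Its share of all reads was nearly equal in both PAR-CLIPs, with a ratio of FH-DHX36-E335A over FH-DHX36 of 1.03 (95% counting interval 0.96 to 1.10). The alpha subunit ATP5A1 had 129 and 939 reads and the gamma subunit ATP5C1 120 and 642. ATP5E, the epsilon subunit, had 1120 and 1793 reads, of which 1049 and all 1793 were annotated to its 3′ UTR, in 1 cluster each, and its 71 intronic reads were the most for FH-DHX36. All 4 were bound in both PAR-CLIPs, while the remaining F1 subunit, ATP5D, had no cluster.

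The peripheral stalk that holds the F1 head still was bound through all 4 of its subunits. ATP5J, a coupling factor, had the second-highest FH-DHX36-E335A count of the 93 genes, 6917 reads, and 965 FH-DHX36 reads. Of these, 5782 and 884 lay outside all 4 annotations of the table, 5′ UTR, CDS, 3′ UTR and intron, and none was listed in its 3′ UTR. ATP5H, subunit d, had 627 FH-DHX36 reads in 1 cluster of the CDS, but 2740 of its 2772 FH-DHX36-E335A reads in 1 cluster outside the 4 annotations. The authors' pipeline also has categories such as stop codons and exon borders, and which of these applies to a gene is not given. ATP5O, the oligomycin sensitivity protein, had 231 and 862 reads, and ATP5F1, subunit b, had 25 and 340.

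The proton-carrying c ring is encoded by 3 genes with distinct mRNAs, and their values diverged between the PAR-CLIPs. ATP5G2 had 555 FH-DHX36 reads in 1 cluster of the CDS and 612 FH-DHX36-E335A reads in 3 clusters, 428 of them in the CDS. ATP5G3 had 53 and 2166 reads, the latter in 15 clusters, the most of the 93 genes, with 1847 reads in 10 clusters of a 3′ UTR of 2030 nt. ATP5G1 had no FH-DHX36 cluster and 285 FH-DHX36-E335A reads. Relative to the total of each PAR-CLIP, the ATP5G2 share was 3.67 times higher for FH-DHX36 (counting interval 3.27 to 4.13), and that of ATP5G3 was 10.1 times higher for FH-DHX36-E335A (7.68 to 13.5). A pattern match from the CDS of ATP5G2 and another from the 3′ UTR of ATP5G3 are shown as examples. The ATP5G2 transcript holds 2 matches, the other in its 3′ UTR. The ATP5G3 transcript holds 4, the others in its 5′ UTR and CDS. Shown for ATP5G2, minus strand, is the match in exon 4 at chr12:54062978-54062996. For ATP5G3, minus strand, it is the match in exon 5 at chr2:176041378-176041402, 1613 nt after the stop codon.
ATP5G2 CDS: GGGGuGGcuGGuucuGGGG
ATP5G3 3′ UTR: GGaacuaGGGaGGGGGugaaaaGGG

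Complex I is the largest complex and its mRNAs had modest counts. Of its 36 subunits, 17 were bound by FH-DHX36 and 31 by FH-DHX36-E335A, with medians of 69 and 232 reads per bound gene. NDUFA2, an accessory subunit of the NADH-binding module, had 156 and 2347 reads, the latter the most of the complex, of which 133 and 2194 lay outside the 4 annotations. NDUFS6, a zinc-binding accessory subunit, had the most FH-DHX36 reads of the complex, 402, with 339 in the CDS, and 563 FH-DHX36-E335A reads. NDUFA12 and NDUFA11, also accessory subunits, had 152 and 1148 and 181 and 316 reads.

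NDUFA5, an accessory subunit of the ubiquinone-reducing module, differed from most of the complex. It had no FH-DHX36 cluster but 1276 FH-DHX36-E335A reads, 1256 of them in 5 clusters of a 3′ UTR of 5122 nt, and at an abundance of 8.31 its NXPM was 17.5, the highest of any subunit. NDUFS1, a core subunit of low abundance that carries iron-sulfur clusters, had 180 FH-DHX36-E335A reads and an NXPM of 2.20. At the other end, NDUFA13 had 24 and 34 reads at NXPM values of 0.011 and 0.00385, the latter the lowest of the 71. NDUFB7 and the iron-sulfur subunit NDUFS8 were also low, with 41 and 150 reads for NDUFB7 and 0 and 73 for NDUFS8.

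The succinate dehydrogenase mRNAs of complex II were few but held the highest NXPM of any FH-DHX36 member. SDHC, a membrane anchor of the complex, had 255 FH-DHX36 reads, 232 of them in 1 cluster of the 3′ UTR, and 201 FH-DHX36-E335A reads, 148 of them in the 3′ UTR. Its NXPM was 5.23 and 1.02, at a recovered RNA abundance of 22.6 in both. The iron-sulfur subunit SDHB had 53 and 585 reads, and the flavoprotein SDHA 0 and 105. The 3′ UTR of SDHC is shown because it holds a match with every run at least 3 G long, in exon 6, 367 nt after the stop codon, at chr1:161332591-161332612 on the plus strand. NDUFA2 has such a match too, in exon 3, 247 nt after the stop codon, at chr5:140024906-140024924 on the minus strand, if its longest run is split and the GG after the first run is read as part of a loop.
SDHC 3′ UTR: GGGGauGGGccGGGuuGGGGGG
NDUFA2 3′ UTR: GGGuGGcGGGGGGGcaGGG

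Complex IV had the lowest median NXPM of the 5 complexes. Of its 17 subunits, 6 were bound by FH-DHX36, each with 1 cluster and 20 to 102 reads, and 10 by FH-DHX36-E335A, with 186 to 1801 reads. COX5B, COX6B1 and COX8A had the most FH-DHX36 reads, 102, 93 and 74. COX4I1 and COX5A, both regulatory subunits, had 20 and 1801 reads and 0 and 1656 reads, and COX7C, a small membrane subunit, had 65 and 1260. Of the COX5A reads, 1451 fell in 2 clusters of the 3′ UTR, and no match to the G-run pattern was found in its transcript or in that of COX7C. The median recovered abundance of the 6 mRNAs bound by FH-DHX36 was 1139, the highest among the complexes, and their median NXPM was 0.025. COX7C had the lowest FH-DHX36 NXPM, 0.00904, and COX8A and COX6A1 were low for the mutant, at 0.0177 and 0.0157. NDUFA4, named for complex I but now assigned to complex IV, had the only FH-DHX36 cluster of the complex in a 5′ UTR, with 61 reads. The 6 tissue-restricted isoforms, COX4I2, COX6A2, COX6B2, COX7A1, COX7B2 and COX8C, had no cluster in either PAR-CLIP.

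The remaining genes without any cluster included 8 subunits, which were NDUFA3, NDUFA6, NDUFB11, NDUFS7 and NDUFV1 of complex I, COX7B of complex IV, and ATP5D and ATP5L of complex V. Among the 13 genes that are no subunits, 5 were bound by FH-DHX36-E335A and 1 by FH-DHX36. COX7A2L, a factor of respiratory supercomplexes, had 563 FH-DHX36-E335A reads, the assembly factor ATP5SL 78 and the pseudogene ATP5EP2 48. ATP5S, factor B of the ATP synthase, had 79 and 77 reads. The readthrough gene NDUFC2-KCTD14 had 86 reads and an NXPM of 198, which rests on an abundance of 0.049, and its sequence overlaps that of NDUFC2. The other 8 had no cluster, and these were UQCRHL, UQCRBP1, NDUFA4L2, ATP5L2, ATP5J2-PTCD1 and the antisense RNAs NDUFA6-AS1, NDUFB2-AS1 and NDUFV2-AS1.

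To compare the PAR-CLIPs at unequal depth, the reads of each gene were divided by the total of its PAR-CLIP. The 93 genes together took 0.582% of FH-DHX36 reads and 0.845% of FH-DHX36-E335A reads, a ratio of 1.45 (counting interval 1.43 to 1.48) that was 1.22 with exonic reads alone. Among the 44 genes bound in both, 28 had a higher share in FH-DHX36-E335A, or 63.6% against 53.4% of the 5669 genes of the table bound in both. With exonic reads alone the count was 16 of 32. The median ratio was 1.29, with a range from 0.11 to 22.2, and over the table the median was 1.09. A share at least 2 times higher for FH-DHX36-E335A was found for 13 of the 44 (28.6% in the table), and 9 were at least 2 times higher for FH-DHX36 (24.8%). At 4 times, 3 genes stood on each side, where the table had 10.5% and 10.9%.

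COX4I1, ATP5G3 and COX7C were the genes with at least 4 times more in FH-DHX36-E335A, with ratios of 22.2 (counting interval 14.3 to 36.48), 10.1 and 4.78 (3.73 to 6.24). On the opposite side, NDUFA10, SDHC and ATP5S had shares 9.45 times (4.15 to 23.4), 5.14 times (4.26 to 6.21) and 4.16 times (3.00 to 5.76) higher for FH-DHX36. NDUFA10, an accessory subunit of complex I, rests on 21 and 9 reads, all intronic. Absolute reads were higher for FH-DHX36 only in NDUFA10, SDHC and ATP5S. The 27 genes with clusters of the mutant alone had 16 to 2496 reads with a median of 180, and UQCRB, COX5A and NDUFA5 led them. Of the genes bound in both, the FH-DHX36-E335A median was 552 reads. The FH-DHX36-E335A values summed to more reads, and the part of that difference in the longer list of bound genes was not tested.

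**Figure D2:**
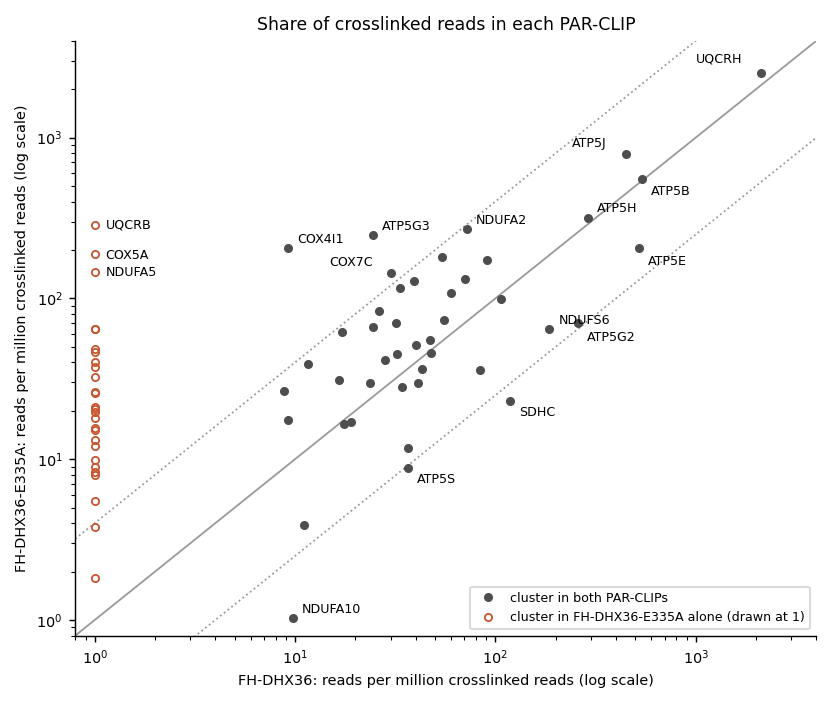
Reads of each gene per 1000000 crosslinked reads of its PAR-CLIP (log axes) for the 44 genes bound in both, with the 27 that only the mutant bound drawn at 1 on the x axis. The solid line marks equal shares and the dotted lines a 4-fold difference. COX4I1, ATP5G3 and COX7C lie above the upper line, and SDHC, ATP5S and NDUFA10 below the lower one.

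NXPM divides by RNA abundance, and the bound genes of the respiratory chain are abundant. All 44 genes bound by FH-DHX36 and 70 of the 71 bound by FH-DHX36-E335A had a recovered abundance above the median of bound genes. Their NXPM lay below the table median in 44 of 44 and 68 of 71. The exceptions were NDUFC2-KCTD14, NDUFA5 and UQCRB. The median NXPM was 0.169 for FH-DHX36 and 0.253 for the mutant, and 36 of 44 and 58 of 71 genes had an NXPM below 1, compared with 14.4% and 18.4% of all bound genes. With exonic reads alone the medians were 0.0634 and 0.0831. In the table, bound genes with an abundance of at least 100 had medians of 0.266 and 0.233, a restriction chosen after seeing the data. The medians of 0.169 and 0.253 include genes below 100, so setting them beside these values is no comparison at equal abundance.

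Read counts were also compared within bins of abundance. From 100 to below 1000, where most of the genes lay, the median was 102 reads over 29 genes bound by FH-DHX36, against 188 over the table, and 466 reads over 42 genes bound by the mutant, against 696. The respective NXPM medians were 0.161 against 0.409, and 0.156 against 0.407. At an abundance of 1000 or more the order of the NXPM medians turned, with 0.0262 against 0.0225 over 8 genes bound by FH-DHX36 and 0.0433 against 0.0245 over 9 bound by the mutant. Median reads there were 73 against 209 and 613 against 893, and these bins hold few of the genes. The bins did not equalize abundance, which is the divisor of NXPM. From 100 to below 1000, median abundance was 315 and 337 against 192 in both PAR-CLIPs. At 1000 or more it was 1455 and 1428 against 3720 and 3182.5. The part of these gaps in the order of the medians was not tested. Across the bound genes, Spearman's rho of reads with abundance was 0.22 over the 44 genes of FH-DHX36 and 0.35 over the 71 of the mutant, beside 0.21 and 0.32 over the table. With exonic reads alone it was 0.04 and 0.23. NXPM fell with abundance, with a rho of −0.63 and −0.62, and abundance is the divisor of NXPM. These are correlations across genes of 1 library set, which are not replicates. Between the PAR-CLIPs, reads of the 44 genes had a rho of 0.55 and NXPM one of 0.80, and the latter shares its divisor.

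**Figure D3:**
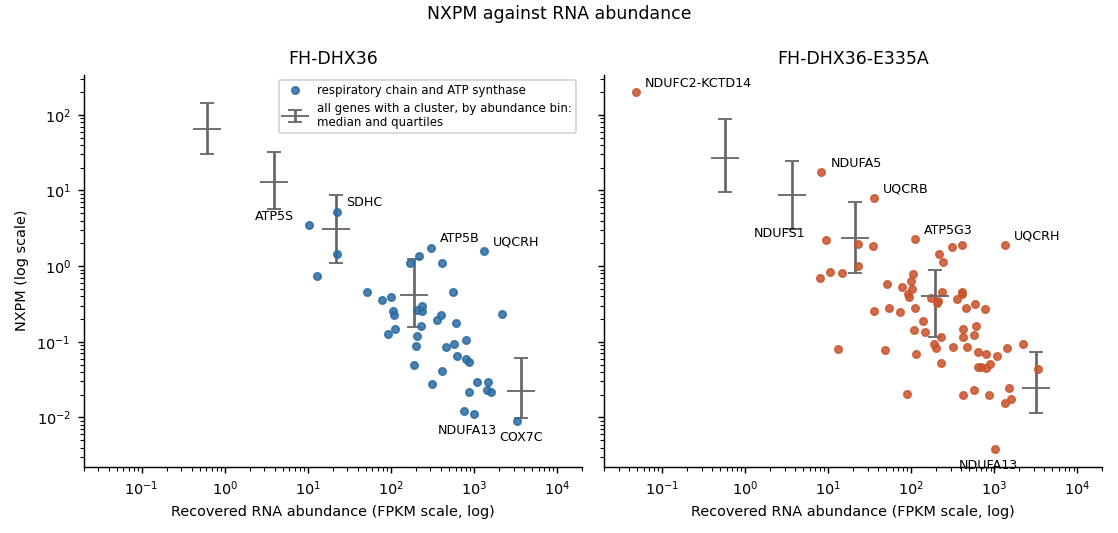
NXPM against recovered RNA abundance (log axes) of the bound genes in each PAR-CLIP, with the median and quartiles of all bound genes in bins of abundance in grey. Most points lie between 100 and 1000 on the x axis, and NDUFC2-KCTD14, NDUFA5 and UQCRB are the highest FH-DHX36-E335A values.

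The annotation of the clusters differed from that of the table in 2 ways. First, the CDS held a larger part of the clusters. Of the clusters in exons, the CDS took 68.6% for FH-DHX36 and 53.7% for the mutant, where the table had 38.3% and 35.7%. The 3′ UTR took 25.5% (Wilson interval 15.5 to 38.9) and 42.3% (35.7 to 49.2), against 51.5% and 59.2% in the table. Measured against the share expected from the summed region lengths of the genes with an exonic cluster, the 3′ UTR held 0.49 and 0.65 times the expectation, and over all genes 0.98 and 1.12 times. These lengths came from GENCODE release 44, but the clusters were annotated with release 19. Long 3′ UTRs weigh most in the sums, such as those of UQCRB, 8108 nt, and NDUFA9, 7209 nt, for the mutant. The part of either in these values was not tested. Counted by reads, the 3′ UTR of the genes held 1.22 and 1.14 times the expectation, and over all genes 0.98 and 1.37 times. Without UQCRH the members' values by reads were 0.60 and 0.80 times. The CDS took 35.7% and 25.4% of the members' exonic reads, against 38.0% and 22.9% over the table. Without UQCRH it took 66.7% and 46.4%. Second, many clusters carried none of the 4 annotations, 26.0% and 26.2% of clusters against 9.27% and 11.8% over the table. Introns held 7.79% and 6.98% of clusters, and the 5′ UTR 3 and 8 clusters in all.

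Counted by reads, the 3′ UTR share rested on UQCRH. The 3′ UTR took 63.3% of exonic reads for FH-DHX36 and 73.5% for the mutant, against 51.4% and 71.9% over the table. Without UQCRH these fell to 31.3% and 51.8%. Reads outside the 4 annotations were 20.2% and 33.4% of all reads of the 93 genes, and 31.7% and 47.5% without UQCRH.

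**Figure D4:**
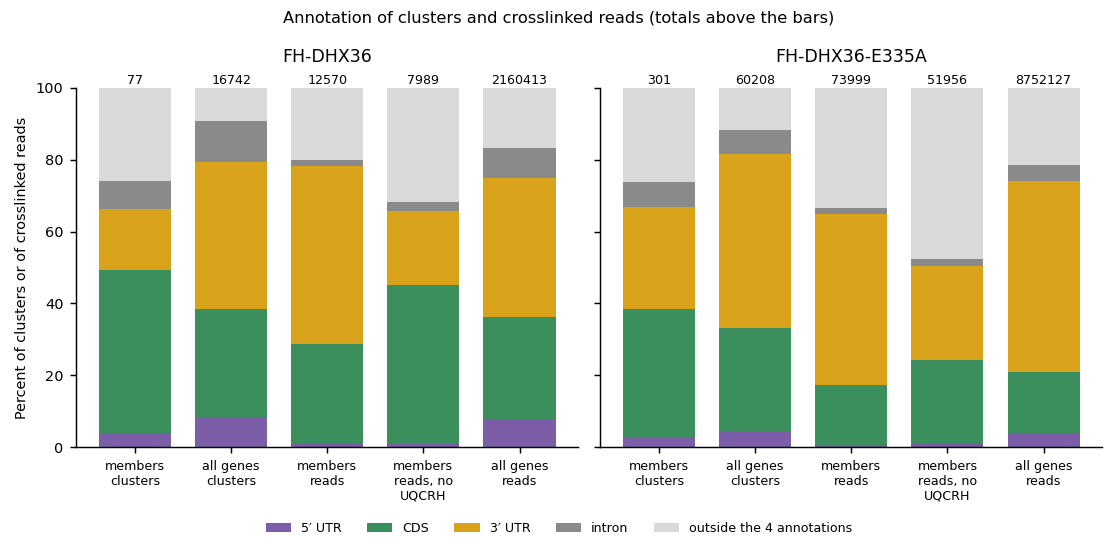
Percent of clusters and of crosslinked reads by annotation, for the 93 genes and for all genes of the table, with totals above the bars. The 3′ UTR part of the members' reads shrinks when UQCRH is left out, and the part outside the 4 annotations is larger than in the table.

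Gene by gene, the category with most reads was the CDS for 21, no listed annotation for 15 and the 3′ UTR for 6 of the 44 genes bound by FH-DHX36. For the 71 bound by FH-DHX36-E335A it was no listed annotation for 33, the 3′ UTR for 21 and the CDS for 14. Over all bound genes, the 3′ UTR led for 37.2% and 53.4%, the CDS for 28.8% and 20.4%, and no listed annotation for 11.1% and 15.1%. The leading category was the same in both PAR-CLIPs for 24 of the 44 genes (54.5%), and for 59.7% of all genes that were bound in both. Where it changed, the most frequent changes were from the CDS to no listed annotation, in 7 genes that include ATP5B, ATP5H, ATP5O and COX4I1, and from the CDS to the 3′ UTR, in 5 genes that include ATP5F1, ATP5G3, SDHB and UQCRC2. These genes were named after their values were seen. FH-DHX36-E335A had more reads per gene, and the part of depth in these changes was not tested.

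**Figure D5:**
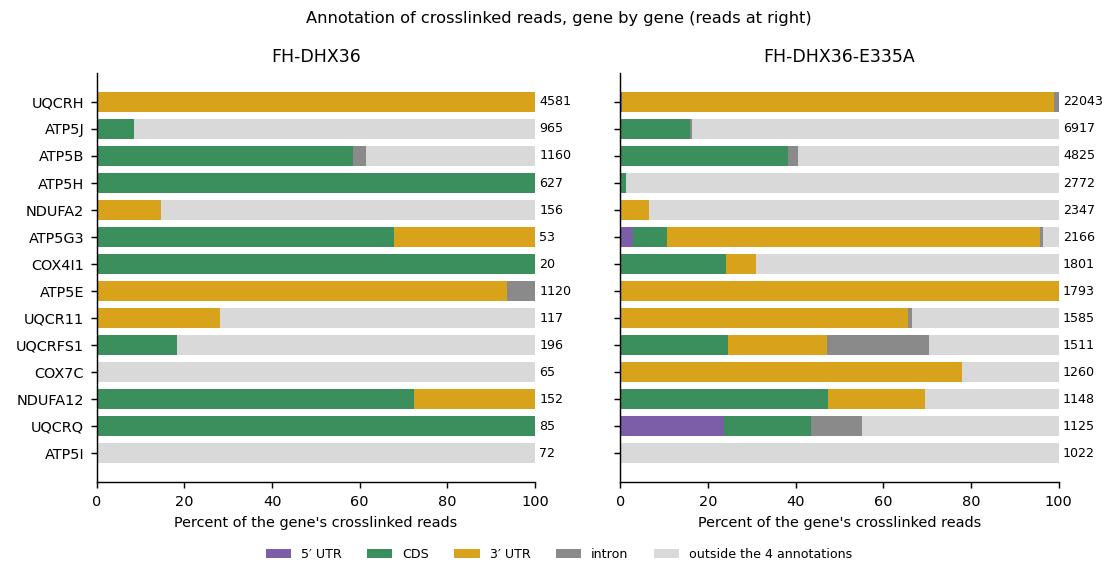
Percent of each gene's crosslinked reads by annotation for the 14 genes with most FH-DHX36-E335A reads among those bound in both, with the read count at the right. UQCRH and ATP5E are almost wholly 3′ UTR in both PAR-CLIPs, while ATP5H changes from the CDS to no listed annotation.

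Ribosomal protein mRNAs are also short and abundant, and were set beside these genes. FH-DHX36 bound 60 of 85 cytosolic and 48 of 76 mitochondrial ribosomal protein genes, and FH-DHX36-E335A bound 69 and 70. The medians of NXPM were 0.016 and 0.017 for the cytosolic and 0.487 and 0.726 for the mitochondrial set, so that the respiratory chain genes lay between them in both PAR-CLIPs. Their median abundance among genes bound by FH-DHX36-E335A, 226, also lay between 4225 and 60.0. The 3′ UTR share of exonic clusters was 40.8% and 54.9% for the cytosolic and 50% and 49.3% for the mitochondrial set, higher in each case than the 25.5% and 42.3% of the respiratory chain genes. Clusters outside the 4 annotations were also frequent there, at 22.0% and 26.5% for the cytosolic and 19.05% and 23.0% for the mitochondrial set. No difference between these sets was tested.

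Genes that work with the respiratory chain but lie outside the name pattern were also listed. Of 49 assembly factors, 25 were bound by FH-DHX36 and 42 by FH-DHX36-E335A, with median NXPM values of 1.81 and 1.51 at a median abundance of 28.6 and 26.0. Of 12 transcriptional regulators of respiratory genes and mitochondrial DNA, 8 and 11 were bound, with medians of 8.94 and 7.34. Of 7 further subunits, carriers and regulators in the table, 4 and 6 were bound, with medians of 0.313 and 0.194. Cytochrome c, CYCS, had 47 and 396 reads, and CYC1, the cytochrome c1 subunit of complex III, 168 and 456. Among the assembly factors, TIMMDC1 had 1430 FH-DHX36 reads and 964 FH-DHX36-E335A reads, all of the former in 1 cluster of the CDS, and NDUFAF2 had 343 and 4196. These 4 genes were chosen after their values were seen.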

How the data were processed

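PAR-CLIP was performed in 2 HEK293 lines, with 2 biological replicates each. Per the study's methods, the authors called clusters of overlapping reads with PARalyzer within PARpipe and annotated them with GENCODE release 19. Versions of these programs are not given in the sources used here, and the submitters' processing notes list bcl2fastq 2.17.1 and hg19. The authors deposited 1 table with counts of clusters and of crosslinked reads, not normalized, per gene and annotation, and NXPM, a score that divides the share of crosslinked reads by RNA abundance quantified with Cufflinks. Every column was mapped to its cell line, NXPM of single annotations was not used, and 0 columns belonged to other samples.

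RNA abundance was recovered as the reads per 1000000 of the PAR-CLIP over NXPM, minus 0.001. For the 44 genes bound in both PAR-CLIPs the recovered values agreed within 0.1%. On simulated NXPM built with the same formula, the recovery gave back 100% of the values to within 0.01%, over 5930 FH-DHX36 and 9131 FH-DHX36-E335A genes. This checks the arithmetic only and cannot show that the authors computed NXPM in this way. Lengths, coordinates and sequences came from GENCODE release 44 on GRCh37, the build of hg19, from the canonical coding transcript, and near-identical copies from blastn 2.17.0 at 95% identity or more over at least 50% of a transcript. Shares have 95% Wilson intervals, ratios exact binomial ones. Python 3.11.15, pandas 2.3.3, scipy 1.17.1 and matplotlib 3.10.9 were used.

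Genes were named by rule, as the 3 with most reads per complex and PAR-CLIP, the 5 highest and lowest by NXPM, the 3 with most reads among those bound by FH-DHX36-E335A alone, those with shares at least 4 times apart, the highest per annotation, and every non-subunit. Others were named for their role in a complex. Members and lists were chosen with earlier results of these data known. A planned count test between the lines was not run because replicates are not separated in the table. 1 complex I gene that the rule names is not reported here.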

Additional observations from a re-analysis of the deposited data

How the results depend on the processing

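No paired analysis was possible because replicate values are not separated in the table, and leaving out a replicate and the planned count test were not run for the same reason. Of 47 alternatives, 27 moved a value by less than its counting interval or a count by less than 1.5 times and 20 by more. Counting only genes with at least 2 clusters left 19 genes bound by FH-DHX36. Exonic reads alone gave median NXPM values of 0.0634 and 0.0831, shares of all reads of 0.609% and 0.741%, a ratio of shares of 1.22, and 16 of the 32 genes with exonic reads in both PAR-CLIPs higher in FH-DHX36-E335A, an even split in place of 28 of 44. Counting reads in place of clusters gave a 3′ UTR share of 63.3% and 73.5%, or 1.22 and 1.14 times the expected share. The value thus passed from below to above the expectation. Without UQCRH, an alternative chosen after seeing the data, the FH-DHX36-E335A share by reads was 51.8%. The 3′ UTR then held 0.60 and 0.80 times its expected share by reads, below the expectation in both PAR-CLIPs. Leaving UQCRH out gave shares of all reads of 0.370% and 0.594% and a ratio of 1.61. Without UQCRH and ATP5J, also chosen after seeing the data, they were 0.325%, 0.515% and 1.58. Leaving DHX36 and the mitochondrially encoded genes out of the totals gave a FH-DHX36 share of 0.597% and a ratio of 1.42. The cause of these changes was not tested beyond what each construction shows. With the longest in place of the canonical transcript, also from GENCODE release 44, the 3′ UTR held 0.495 and 0.669 times its expected share by clusters. Genes with few reads, such as NDUFA10 and UQCRC1, are limited by depth, and a gene without a called cluster may still have given reads.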
